A study of Mus musculus with 8 samples.

Results

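Broad H3K27ac domains are long stretches of chromatin that carry acetylation of histone H3 at the lysine named in the mark. They were found here by merging all overlapping peaks (at least 1 bp) of 8 H3K27ac peak lists on chromosomes 1 to 19, X and Y, and keeping the merged regions of 5000 bp or wider, so the members were chosen by the width of the H3K27ac peaks themselves, and values of width are descriptions. Of 112301 merged regions, 1008 (0.898%) were that wide, and they held 6.98 Mb, or 6.39% of all merged length. The lists came from CUT&Tag, in which an antibody brings a transposase to marked chromatin, on small intestinal crypts of male C57BL/6J mice aged 9 weeks. Mice were fed or fasted for 24 h (Fed, Fast), and had either no tetracycline or 21 days of this antibiotic (-Tetra, +Tetra). The crypts had been shaken off with EDTA and dissociated with trypsin. Each of the 4 groups, Fed or Fast with -Tetra or +Tetra, was 1 sample per mark with 2 peak lists, numbered 1 and 2, and H3K9ac was profiled in the same 4 groups. The labels do not say whether the lists of a sample came from different mice, so the spread between them may be technical. The lists are described as downsampled, and the read depth behind them is unknown. Below, 8 values given in a row begin with the -Tetra lists (Fed 1 and 2, Fast 1 and 2) and go on with the +Tetra lists in the same order.

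H3K27ac marks active promoters and enhancers. Where several active elements lie close together their acetylation runs into a broad domain, and such domains are known to lie over genes that set cell identity, such as the homeobox gene Cdx2 in the intestinal epithelium. H3K9ac is concentrated at active promoters. Here it also covered part of the domains that held no start or finish of a protein-coding gene. The part of promoters inside genes or of noncoding genes in that was not tested. The crypt epithelium renews the gut lining from stem cells and responds to fasting with changes in lipid and sugar use.

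Domains over small RNA genes were examined first because their products are short enough to show. Of 1005 microRNA hairpins in the sequence table, 29 (2.89%) lay under 22 domains. The 12 microRNAs below were chosen after their values were seen, as members of families known from epithelia or gut. The sequences are from RefSeq (GRCm38.p6), 5′ to 3′, and capitals mark the seed, bases 2 to 8. Shared seeds put miR-200b, miR-200c and miR-429 in 1 family, miR-200a and miR-141 in another, and let-7b with let-7c.

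mmu-miR-200b-3p: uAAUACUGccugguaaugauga
mmu-miR-200c-3p: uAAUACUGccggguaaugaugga
mmu-miR-429-3p: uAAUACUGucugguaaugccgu
mmu-miR-200a-3p: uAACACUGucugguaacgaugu
mmu-miR-141-3p: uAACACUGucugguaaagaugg
mmu-miR-194-5p: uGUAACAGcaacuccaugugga
mmu-miR-215-5p: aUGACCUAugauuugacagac
mmu-miR-203-3p: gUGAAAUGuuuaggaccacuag
mmu-miR-21a-5p: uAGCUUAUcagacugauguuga
mmu-let-7b-5p: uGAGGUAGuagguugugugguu
mmu-let-7c-5p: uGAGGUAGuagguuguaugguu
mmu-miR-26b-5p: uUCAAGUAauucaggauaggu

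All 5 hairpins of the miR-200 group, which keep epithelial cells epithelial by repressing Zeb1 and Zeb2, were under domains at both of their loci. The domain over Mir200b, Mir200a and Mir429 (chr4:156052825-156061021, 8.20 kb) lay between genes, 2.0 kb from Ttll10. It was covered over 7.54, 6.97, 7.49, 7.41, 5.92, 7.68, 7.0 and 7.96 kb in the 8 lists. The domain over Mir200c and Mir141 (chr6:124711538-124722515, 10.98 kb) also touched Emg1, Phb2 and Ptpn6. Its covered lengths were 4.62, 9.22, 8.70, 9.41, 5.68, 8.67, 8.47 and 5.94 kb. Both loci were thus marked in all 8 lists, and Fed and Fast lists overlapped at both. Mir194-1 and Mir215, a cluster found mainly in gut, kidney and liver epithelium, lay under a 6.20 kb domain inside Iars2 (chr1:185309884-185316088), covered over 5.44, 5.50, 5.17, 5.46, 4.70, 6.12, 5.35 and 5.88 kb. Fed and Fast lists overlapped there too. The hairpins Mir192 and Mir194-2 were also in the sequence table, and neither was under a domain. Mir21a lay under the 15.8 kb domain of its neighbour Vmp1, and Mir203 under a 9.19 kb domain that touched Aspg. Mirlet7b and Mirlet7c-2 lay under a 9.90 kb domain 27 kb from Ppara, and Mir26b under a 9.16 kb domain at Ctdsp1. No other let-7 or Mir26 hairpin was among the 29 under domains.

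Promoters of 4 genes are shown because the results below turn on their domains: Cdx2 and Apoa4 lay under 2 of the 4 widest domains, and Lgr4 and Tsc22d3 under domains that were longer in Fast lists. Each window is 300 bases, from 250 before to 50 after the start site, 5′ to 3′ on the gene's strand, from RefSeq (GRCm38.p6). Tsc22d3 was chosen after its values were seen. Capitals mark matches on either strand to 9 motifs, searched one by one, so that matches of different motifs may overlap. They were the box TATAAA of many regulated promoters, the box CCAAT of nuclear factor Y, and GGGCGG, which proteins of the SP and KLF families bind. The others were CCGGAA for the ETS family, AGATAA for GATA proteins, TTTATNG for CDX proteins, CAAAGTC for the nuclear receptor HNF4, TGANTCA for the dimers of Jun and Fos, and TGACG for proteins of the CREB family.

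Cdx2 chr5:147307200-147307499 (- strand): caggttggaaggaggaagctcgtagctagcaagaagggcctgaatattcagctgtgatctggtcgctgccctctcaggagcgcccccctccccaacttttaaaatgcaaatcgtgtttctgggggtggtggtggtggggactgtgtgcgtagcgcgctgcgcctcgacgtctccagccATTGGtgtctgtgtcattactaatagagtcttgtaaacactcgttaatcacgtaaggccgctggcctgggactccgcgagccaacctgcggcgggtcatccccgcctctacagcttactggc
Apoa4 chr9:46240594-46240893 (+ strand): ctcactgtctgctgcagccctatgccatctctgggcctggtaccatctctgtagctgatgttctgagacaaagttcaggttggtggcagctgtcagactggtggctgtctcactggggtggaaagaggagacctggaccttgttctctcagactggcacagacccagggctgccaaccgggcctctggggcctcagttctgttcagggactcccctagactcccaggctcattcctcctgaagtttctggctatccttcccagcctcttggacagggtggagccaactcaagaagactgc
Lgr4 chr2:109917397-109917696 (+ strand): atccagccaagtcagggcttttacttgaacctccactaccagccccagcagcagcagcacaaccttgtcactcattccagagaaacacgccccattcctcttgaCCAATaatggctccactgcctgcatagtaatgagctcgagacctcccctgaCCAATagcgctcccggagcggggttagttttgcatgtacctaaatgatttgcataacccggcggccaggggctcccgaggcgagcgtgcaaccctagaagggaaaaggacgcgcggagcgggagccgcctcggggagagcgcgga
Tsc22d3 chrX:140542619-140542918 (- strand): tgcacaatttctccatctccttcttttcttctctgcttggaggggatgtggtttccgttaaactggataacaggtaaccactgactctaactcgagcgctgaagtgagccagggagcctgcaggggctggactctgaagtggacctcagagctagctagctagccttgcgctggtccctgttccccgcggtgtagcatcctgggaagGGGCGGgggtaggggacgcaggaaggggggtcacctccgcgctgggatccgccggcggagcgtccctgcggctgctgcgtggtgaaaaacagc

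The Cdx2 window held 18 CG dinucleotides and 1 CCAAT match, and Lgr4 held 18 with 2 CCAAT matches. Tsc22d3 held 16 with 1 GGGCGG match, while Apoa4 held 1 CG and none of the 9 motifs. All 4 windows were covered completely by a peak in each of the 8 H3K27ac lists. In the H3K9ac lists the whole window was covered in 8 for Cdx2, 8 for Lgr4, 6 for Apoa4 and 5 for Tsc22d3. Start sites were listed for 17492 of 21887 protein-coding genes (79.9%), and 643 windows of 515 genes had their start site in a domain. These windows had a median of 21 CG dinucleotides against 13 over all 21263 windows. GGGCGG was in 68.6% of them against 46.2% of all windows, and TATAAA in 6.07% against 12.6%. Windows in merged regions of at least 2 kb and under 5 kb, called mid-width below, had similar values, with a median of 23 CG, GGGCGG in 70.3% and TATAAA in 6.30%. CCGGAA was in 20.4% of domain windows, 29.3% of windows in those narrower regions and 18.7% of all windows. TTTATNG was in 8.24% of domain windows and 9.58% of all windows, and CCAAT in 33.7% against 38.2%. AGATAA was in 6.07% against 9.65%, CAAAGTC in 4.20% against 4.14%, TGANTCA in 7.78% against 6.99%, and TGACG in 27.5% against 23.6%. These are shares of windows that hold the letters, with no test.

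The median width was 6124 bp with quartiles of 5467 and 7528 bp, and 463 domains (45.9%) were under 6 kb, while 92 reached 10 kb and 12 reached 15 kb. The narrowest domain inside the limit lay in Cmip at 5000 bp, followed by one over no gene at 5002 bp and one in Slc35e1 at 5003 bp. Just outside were regions at Tagln2, 1 bp short of the limit, between genes (4996 bp) and at Tmpo (4994 bp). Of the 1008 domains, 986 (97.8%) had a peak in all 8 lists, against 76.6% of mid-width regions. In 473 domains (46.9%) no list held a single peak of 5 kb, so these domains were wide only as the union of neighbouring peaks. The list that covered a domain most covered a median of 95.3% of it, and the mean over the 8 lists had a median of 73.9%.

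**Figure D1:**
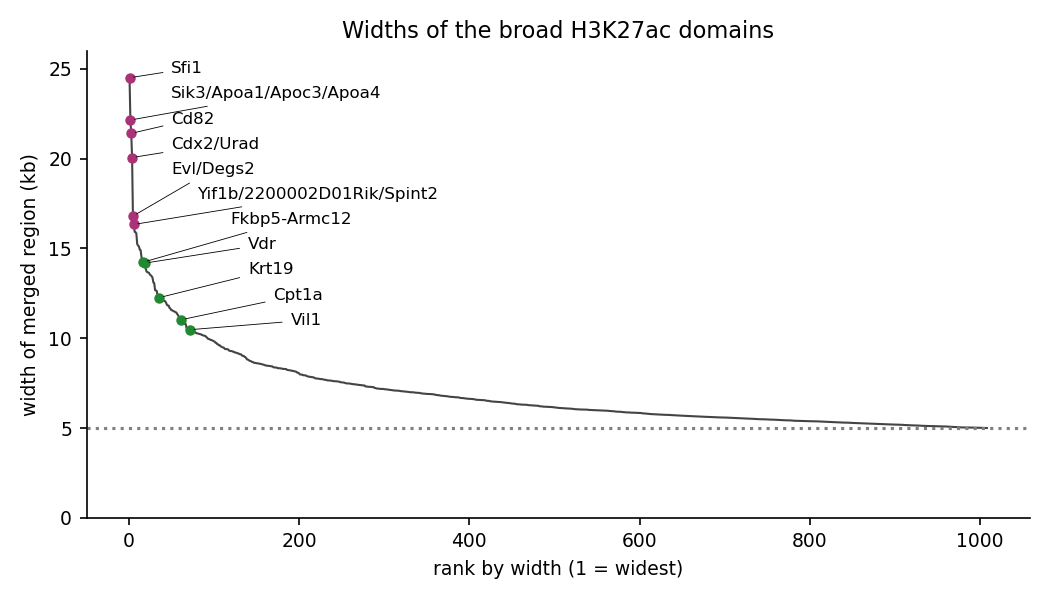
Widths of the 1008 broad H3K27ac domains (kb) against their rank, 1 being the widest. Points are the 6 widest domains (purple) and 5 other named domains (green), and the dotted line is the limit of 5 kb. Widths fall steeply from 24.5 kb at Sfi1 to under 15 kb after the 12 widest.

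Domains overlapped 909 protein-coding genes (4.15% of 21887). A gene was touched by 862 domains, of which 727 touched 1 gene, 118 touched 2 and 17 touched 3 or more. A gene end, the start or the finish of a protein-coding gene, lay inside 534 domains (53.0%). The other 474 lay a median of 14.2 kb from the nearest gene end, and 54 of them over 50 kb away. Among 363 domains with 1 gene and a listed start site inside, a median of 72.2% of the width lay downstream of the start, into the gene. In 91 genes at least 2 separate domains were found, and in 17 genes at least 3. Ccdc85c had 5, while Coro2a, an actin-binding coronin, and Irf2, an interferon regulatory factor, had 4 each; these 3 genes are named after their values were seen. Gata4, Ppard, Tcf7l2 and Itpk1 had 3 each. Chromosome 11 carried 124 domains, or 7.71 per 100 genes, and chromosome 15 carried 7.35 per 100 genes. The X chromosome carried 3 domains, or 0.311 per 100 genes, including the one at Tsc22d3.

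The 4 widest domains were over 20 kb. The widest, at Sfi1, which encodes a centrosome protein, measured 24.5 kb (chr11:3122895-3147392) and was covered over 8.97, 20.6, 20.9, 22.8, 9.80, 22.6, 18.5 and 18.8 kb. It stood apart from the rest in H3K9ac, which was absent from 5 of the 8 lists and covered 3.60, 3.62 and 4.53 kb in the other 3. The Sfi1 region is known for excess reads in mouse sequencing data, and the part of that in this domain was not tested. The next, 22.1 kb (chr9:46223234-46245376), spanned the apolipoprotein genes Apoa1, Apoc3 and Apoa4, which serve lipid export from enterocytes, and the end of Sik3, a kinase gene. The third was at Cd82, a tetraspanin gene (21.4 kb, chr2:93442668-93464069), and the fourth at Cdx2 and Urad (20.1 kb, chr5:147298596-147318651).

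The other domains among the 20 widest held Evl, an actin regulator, with Degs2 (16.8 kb), Spint2, an inhibitor of membrane proteases, with Yif1b and 2200002D01Rik (16.3 kb), Gna11, a G-protein subunit (15.9 kb), and Thra, the thyroid hormone receptor (15.9 kb). They also held Vmp1, an autophagy gene (15.8 kb), the zinc finger repressors Zbtb7b (15.2 kb) and Zbtb7a (15.1 kb), Itpk1, an inositol phosphate kinase (15.2 kb), and Ccdc88c (14.9 kb). The actin-binding Lasp1 (14.9 kb), Zfp36, a messenger RNA decay factor, with Plekhg2 (14.5 kb), Cant1 (14.3 kb), Coro2a (14.2 kb), Vdr, the vitamin D receptor (14.2 kb), and Junb, an AP-1 subunit, with Prdx2 (13.9 kb) completed them, with a domain between Fkbp5 and Armc12 (14.2 kb). Only 4 of all domains held a single peak of 5 kb or wider in each of the 8 lists. They were those at Sfi1, Plekhg2 and Zfp36, Rhof and Setd1b, and Plec, which encodes a cytoskeletal linker. At Plekhg2 and Zfp36 the covered lengths were 14.1, 13.9, 12.8, 13.8, 11.6, 13.7, 13.4 and 14.0 kb, so all lists covered most of that domain.

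Genes of the gut epithelium were common under domains. Of 30 intestinal transcription factors, 18 (60%) were touched by a domain, against 4.15% of all protein-coding genes. Among them were Cdx1, Cdx2, Hnf4a, Gata4, Gata6, Klf5, Elf3, Ehf, Isx, Onecut2, Hes1, Vdr, Creb3l3, Tcf7l2, Myc, Esrra and Rxra. The lists of genes were chosen with earlier results of these data known, and these shares are descriptions without a test. At Cdx2, which specifies the intestinal epithelium, the domain was covered over 16.2, 18.48, 15.97, 19.46, 11.07, 19.01, 15.67 and 19.38 kb. The Fed +Tetra list 1 was the lowest and all lists 2 were above all lists 1, while Fed and Fast lists overlapped. Cdx1 had 2 domains of 10.3 and 9.94 kb, Hnf4a 2 of 7.54 and 7.37 kb, and Rxra, the partner of many nuclear receptors, 2 of 9.97 and 8.37 kb. Elf3, an epithelial ETS factor, had one of 12.1 kb, Onecut2 one of 12.1 kb and Gata6 one of 10.5 kb.

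The absorptive programme was marked as widely. Of 25 genes of the brush border and of absorption, 15 (60%) were touched: Vil1, Ezr, Myo1a, Cdhr2 and Espn of the microvillus, the digestive enzymes Anpep, Lct, Alpi and Treh, the transporters Slc5a1, Slc2a2 and Slc15a1, and Apoa1, Apoa4 and Mttp of lipoprotein assembly. At Vil1, which encodes the actin bundler villin, the wider of 2 domains (10.5 kb) was covered over 7.07, 9.30, 7.64, 8.24, 7.57, 10.3, 8.38 and 10.2 kb. At Lct, which encodes lactase, the covered length ranged more, with 2.56, 4.38, 0.58, 4.33, 1.15, 6.72, 2.10 and 3.27 kb of a 6.99 kb domain. All lists 2 were above all lists 1 at Lct, and Fed and Fast lists overlapped.

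Of 20 genes of junctions and keratins, 12 (60%) were touched: Epcam, Cdh1, Krt8, Krt19, Cldn3, Cldn7, Cldn15, Tjp1, F11r, Cgn, Ctnnd1 and Esrp1. Krt19, a keratin of simple epithelia, had the widest of these at 12.3 kb. Of 20 immediate early genes, which respond to stimulation within minutes, 10 (50%) were touched: Fos, Fosl2, Junb, Jund, Ier2, Zfp36, Zfp36l1, Klf6, Cebpb and Mcl1. Of 20 housekeeping genes, 3 (15%) were touched, among them the actin genes Actb and Actg1. Crypt stem and Wnt genes were touched in 2 of 18 (11.1%), Lrig1, a brake on growth factor receptors (10.04 kb), and Lgr4, a receptor for R-spondins (5.11 kb). Lgr5 and Olfm4, markers of the crypt base stem cell that are named after their values were seen, were not under a domain. None of 20 genes of secretory lineages, 20 of immune cells, 15 of stromal, vessel and muscle cells or 15 of other organs was under a domain. Counting only genes with an end inside a domain, 15 of the transcription factors, 11 of the absorptive genes, 9 of the junction genes and 10 of the immediate early genes were counted, against 3.06% of all genes.

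**Figure D2:**
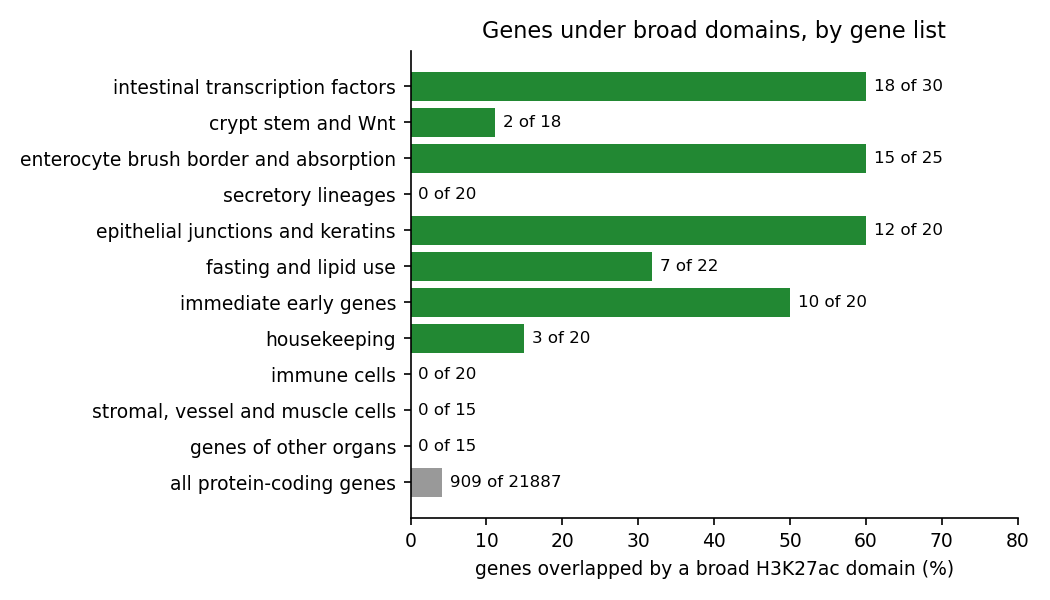
Percent of the genes of each list that a broad H3K27ac domain overlapped by at least 1 bp, with counts at the bars. The grey bar is all 21887 protein-coding genes. Transcription factor, absorptive and junction lists each reach 60%, immediate early genes 50%, and 4 lists stand at 0.

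The label of epithelial cells was checked with markers, counting a gene as marked by an H3K27ac peak within 1 kb of either end. All 10 epithelial markers were marked in all 8 lists, and 9 of them lay under a domain, Krt18 being the exception. All 10 stromal, vessel and muscle markers were marked in none. Of 10 immune markers 4 were marked in none, Cd79a in all 8 lists, Cd3e, Cd8a and Itgam in 6 each, Lck in 5 and Ptprc in 4. Of 10 markers of other organs 8 were marked in none, Sftpc in 6 lists and Myod1 in 1. A peak near a gene is not a measure of how many cells carry it, and in bulk chromatin fewer cells of a type and less mark per cell cannot be told apart.

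Fasting genes were touched in 7 of 22 (31.8%): the nuclear receptors Ppara and Ppard, Cpt1a, which admits fatty acids to mitochondria, Angptl4, a lipase inhibitor, Txnip, Foxo3 and the clock gene Per1. Cpt1a was covered over 5.77, 8.03, 9.10, 9.51, 6.84, 8.86, 8.83 and 9.40 kb of 11.03 kb. Both Fast lists were above both Fed lists without tetracycline, while with tetracycline Fast list 1 was just under Fed list 2. Angptl4 was covered over 2.90, 6.75, 4.57, 9.64, 2.40, 8.47, 8.34 and 10.1 kb of 10.8 kb. Txnip, an inhibitor of glucose uptake, was covered over 6.64, 8.85, 10.68, 11.03, 3.39, 9.20, 7.66 and 11.7 kb of 11.8 kb. At Angptl4 and Txnip the 2 Fed lists 1 were the lowest, and Fed and Fast lists overlapped. Ppara, a sensor of fatty acids, had 2 domains of 5.37 and 5.05 kb, and 3 more lay between Wnt7b and Ppara, the nearest 27 kb away with the let-7 hairpins under it. Pdk4 and Fkbp5 of this list, also named after their values were seen, were not under a domain.

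Domain by domain, the mean covered length over the 4 Fast lists was above that over the 4 Fed lists in 676 of 1008 (67.1%), against 73.4% of all merged regions and 69.4% of mid-width regions. The lists of genes were spread around this share. The Fast mean was higher at 20 of 25 domains over transcription factors (median difference 0.40 kb) and at 11 of 12 over junction genes (0.51 kb). It was higher at 7 of 10 over fasting genes, 7 of 10 over immediate early genes and 5 of 15 over absorptive genes (-0.75 kb). The range over the absorptive domains ran from -2.53 kb at the apolipoprotein genes to 0.55 kb at the domain of Vil1 and Usp37. These directions depended on the scale. The total peak length was 37.7, 53.2, 53.1, 64.2, 33.1, 56.0, 51.1 and 48.2 Mb in the 8 lists, so it was higher in Fast in 3 of 4 pairs of same-numbered lists and lower in +Tetra lists 2. After division by the total peak length of each list, the Fast mean was above the Fed mean in 209 of the 1008 domains (20.7%), against 64.6% of all merged regions and 33.1% of mid-width regions. It was above in 4 of 25 over transcription factors, 2 of 12 over junction genes, 5 of 10 over fasting genes, 1 of 10 over immediate early genes and 0 of 15 over absorptive genes. That division moved the median log2 ratio of Fast over Fed over the domains from 0.079 to -0.21.

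Whether the total extent of the domains changed with fasting was asked list by list. The 8 lists covered 4.46, 5.62, 4.80, 6.18, 3.89, 5.94, 4.57 and 5.63 Mb of the domains. List 2 of every group was above all lists 1. The mean log2 ratio of Fast over Fed was 0.099, a fold of 1.07, with 0.12 without and 0.077 with tetracycline (exact permutation p = 0.56, two-sided, adjusted p = 0.86, 3 of 4 pairs of lists higher). Lists of 1 group differed among themselves with a pooled SD of 0.30 on this scale, so the difference was smaller than the spread. The domains took 11.8, 10.6, 9.04, 9.62, 11.8, 10.6, 8.95 and 11.7% of the peak length of each list. That share averaged 11.2% in Fed and 9.82% in Fast lists, a difference of -1.38 points with a pooled SD of 1.15 between lists (exact permutation p = 0.17, adjusted p = 0.86, lower in 3 of 4 pairs). It differed by -2.80 points over lists 1 and by 0.053 over lists 2. With an equal number of peaks per list the difference was -0.16 points, and with domains of 3 kb or wider it was -3.04 points. Single peaks of 5 kb or wider numbered 57, 186, 94, 323, 23, 288, 58 and 282. Their log2 ratio of Fast over Fed was 0.71, with a pooled SD of 1.75 between lists (exact permutation p = 0.50, adjusted p = 0.86). Without Fed +Tetra list 1 the ratio of Fast over Fed was -0.054 for covered length and -0.21 for single wide peaks. With 36 arrangements of the labels the smallest two-sided p was 0.056, so none of these tests could pass 0.05, and the p-values take the lists of a sample as separate. Were the lists technical repeats, these p-values would be too small. The H3K27ac peaks tested here also chose the domains. Merged by feeding state, 339 domains reached 5 kb only in the Fast lists and 119 only in the Fed lists. These H3K27ac ratios and p-values are therefore descriptions.

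**Figure D3:**
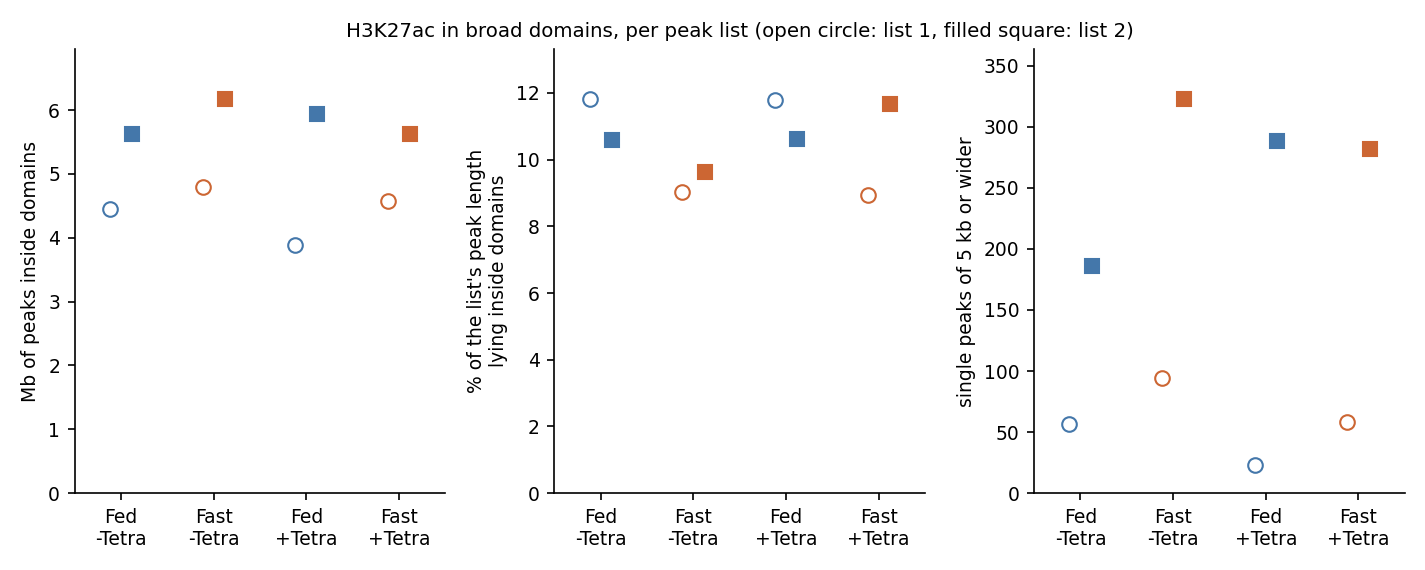
H3K27ac of the broad domains in each of the 8 peak lists: Mb of peaks inside domains, percent of the list's peak length inside domains, and number of single peaks of 5 kb or wider. Blue is Fed, orange is Fast, open circles are lists 1 and filled squares lists 2. Lists 2 lie above lists 1 in the left and right panels (3.89 to 4.80 Mb against 5.62 to 6.18 Mb), whereas Fed and Fast overlap in all 3.

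The number of the list moved with the extent of domains more than feeding did. In all 4 groups list 2 covered more of the domains than list 1, by a mean log2 ratio of 0.40, and held more single wide peaks, by 2.35. All 4 lists 2 were above all 4 lists 1 in 383 domains (38.0%), against 16.7% of merged regions with a peak in all 8 lists and 4.15% of all merged regions. The reverse held in 0 domains, against 0.061% and 0.0232%. The mean of lists 2 was above the mean of lists 1 in 996 of 1008 domains. That share was not counted over all merged regions, so it is not a result about domains as a class. Since wide peaks made the domains, lists 2 also had more part in choosing them: 869 domains of 5 kb or more arose from lists 2 alone and 332 from lists 1 alone. What differs between lists 1 and 2 is not given in the labels.

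Tetracycline was compared in the same way. The log2 ratio of covered length, +Tetra over -Tetra, was -0.080 (exact permutation p = 0.67, adjusted p = 0.86), with -0.058 in Fed and -0.10 in Fast. The share of peak length was 0.49 points higher with tetracycline (exact permutation p = 0.78, adjusted p = 0.88), and the log2 ratio of single wide peaks was -0.39 (exact permutation p = 0.67, adjusted p = 0.86). The ratio of Fast over Fed in covered length differed by -0.044 on the log2 scale between +Tetra and -Tetra (adjusted p = 0.94 by the same exact permutation test, raw p = 0.94). All of these were below the spread between lists. Here too the H3K27ac peaks compared had chosen the domains, so these ratios and p-values are descriptions. Without Fed +Tetra list 1 the tetracycline ratio of covered length was 0.072, and it was also above 0 without Fed -Tetra list 2 or Fast -Tetra list 2. All -Tetra lists were above all +Tetra lists in 3 domains (0.298%), against 0.386% of all merged regions and 1.02% of mid-width regions, and the reverse held in 0 domains, against 0.197% and 0.213%. The 3 were at Chmp6, a gene of membrane remodelling, at another domain of Rhof, a small GTPase, and at Ppargc1b, a coactivator of mitochondrial genes. At Chmp6 (6.38 kb) the lists covered 5.38, 4.85, 6.18 and 6.01 kb without and 4.22, 4.70, 3.97 and 4.78 kb with tetracycline. At Ppargc1b the difference was smaller, with 4.82 to 5.08 kb without and 4.0 to 4.63 kb with tetracycline. The part of the width rule in these 3 domains was not counted, so their values are a description. The mean over +Tetra lists was above that over -Tetra lists in 342 domains (33.9%), against 36.8% of all merged regions and 40.0% of mid-width regions. It was higher in 12 of the 15 absorptive domains and in 1 of the 10 over immediate early genes, and after division by total peak length in all 15 and in 6 of 10. On that scale every -Tetra list was above every +Tetra list in 1 domain (0.0992%) and the reverse held in 10 (0.992%). The backgrounds were 0.239% and 0.648% of all merged regions, and 0.531% and 1.66% of mid-width regions.

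Every Fast list was above every Fed list in 30 domains (2.98%), and the reverse held in 0. The shares were 1.85% and 0.342% over all merged regions and 6.38% and 0.406% over mid-width regions, and 5.04% and 0.494% over regions with a peak in all 8 lists. The share for domains lay between these backgrounds, and the count is not a result about domains as a class. The width rule had a part in the direction. Of the 30, 25 reached 5 kb when the Fast lists alone were merged and not when the Fed lists alone were, 4 with each state alone, 1 with neither and 0 with the Fed lists only. Over all 1008 domains these numbers were 339, 397, 153 and 119. Those 25 domains, among them the ones near Armc12 and at Sorcs2, Lfng, Tifa, Kcne3, Lgr4, Myc and Ehf, were members through the group where they were high, so their values are a description. The domain with the largest difference lay between genes on chromosome 17 (chr17:28511399-28525630, 14.2 kb). It was 25.2 kb from the nearer of the start and finish of Fkbp5, and 5.2 kb from Armc12. Fkbp5 encodes a chaperone of steroid receptors and is a well known target of glucocorticoids. Fed lists covered 4.22 and 6.91 kb of this domain without tetracycline, and 5.18 and 8.76 kb with it. Fast lists covered 13.7 and 12.2 kb without tetracycline, and 11.8 and 12.1 kb with it. The lowest Fast list was 11.8 kb and the highest Fed list 8.76 kb, so the groups did not overlap, and the means were 12.5 and 6.27 kb. In Fed lists the domain was a row of separate peaks with wide gaps, which Fast lists largely filled. H3K9ac, which had no part in the choice, covered 0.72, 3.70, 2.57 and 2.43 kb in the Fed lists and 6.75, 3.68, 5.27 and 4.15 kb in the Fast lists. Only Fast -Tetra list 2, at 3.68 kb, was not above all Fed lists.

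**Figure D4:**
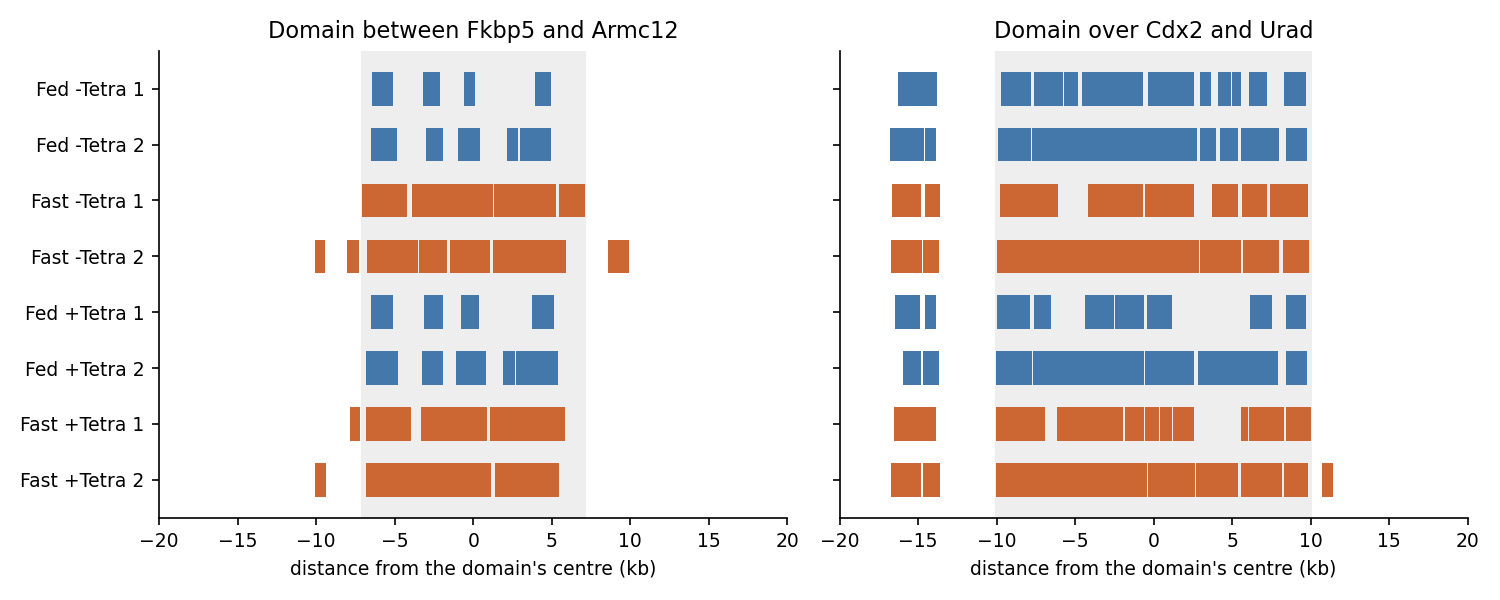
H3K27ac peaks of the 8 lists around 2 domains, against distance from the domain's centre (kb). Bars are peaks (Fed blue, Fast orange) and grey is the merged domain. Between Fkbp5 and Armc12 the Fed peaks leave gaps that Fast peaks fill, while at Cdx2 and Urad both states cover most of 20.1 kb and lists 1 show more gaps.

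The next largest differences were at Sorcs2, Lfng, near Jcad and at Tifa. Sorcs2, a receptor of the sortilin family, was covered over 3.49, 4.84, 2.32 and 3.03 kb in Fed lists and 6.28, 6.33, 5.98 and 6.38 kb in Fast lists. This domain lay inside the gene, 18.9 kb from the nearer of its start and finish. Lfng, a glycosyltransferase that tunes Notch receptors, was covered over 1.10, 1.60, 1.23 and 1.37 kb in Fed lists and 4.03, 5.21, 2.96 and 3.97 kb in Fast lists. All Fed lists lay close together there and the Fast lists spread further. Tifa, an adaptor of innate immune signalling, was covered over 1.12, 1.23, 0 and 1.06 kb in Fed lists and 2.83, 3.64, 3.16 and 3.96 kb in Fast lists. The domain near Jcad lay 50.7 kb from that gene and was covered over 0.97 to 4.16 kb in Fed and 4.64 to 5.62 kb in Fast lists.

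Of the 30 domains, 4 touched no gene, those near Armc12, Jcad, Haao and Jade2. Genes outside the 5 with the largest differences are named here after their values were seen. Lgr4 was covered over 2.56, 2.64, 2.30 and 2.93 kb in Fed lists and 4.16, 4.98, 3.63 and 4.30 kb in Fast lists, with its start site, shown above, inside. Myc, the growth regulator that Wnt signals induce, was covered over 2.40, 3.53, 3.06 and 3.44 kb in Fed lists and 4.45, 5.06, 4.37 and 4.84 kb in Fast lists. At both genes the groups were apart with gaps of under 1 kb. Ehf, an epithelial ETS factor, had Fed lists of 1.17, 3.98, 1.18 and 3.12 kb and Fast lists of 5.26, 4.68, 4.24 and 4.43 kb. Tsc22d3, another glucocorticoid target, Mt1, a metallothionein, Kcne3, a potassium channel subunit of gut epithelium, and Fads2, a fatty acid desaturase, also belonged to the 30. At Fosl2, Cdc42ep5 and Casz1 the mean difference was 0.58 to 0.60 kb.

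**Figure D5:**
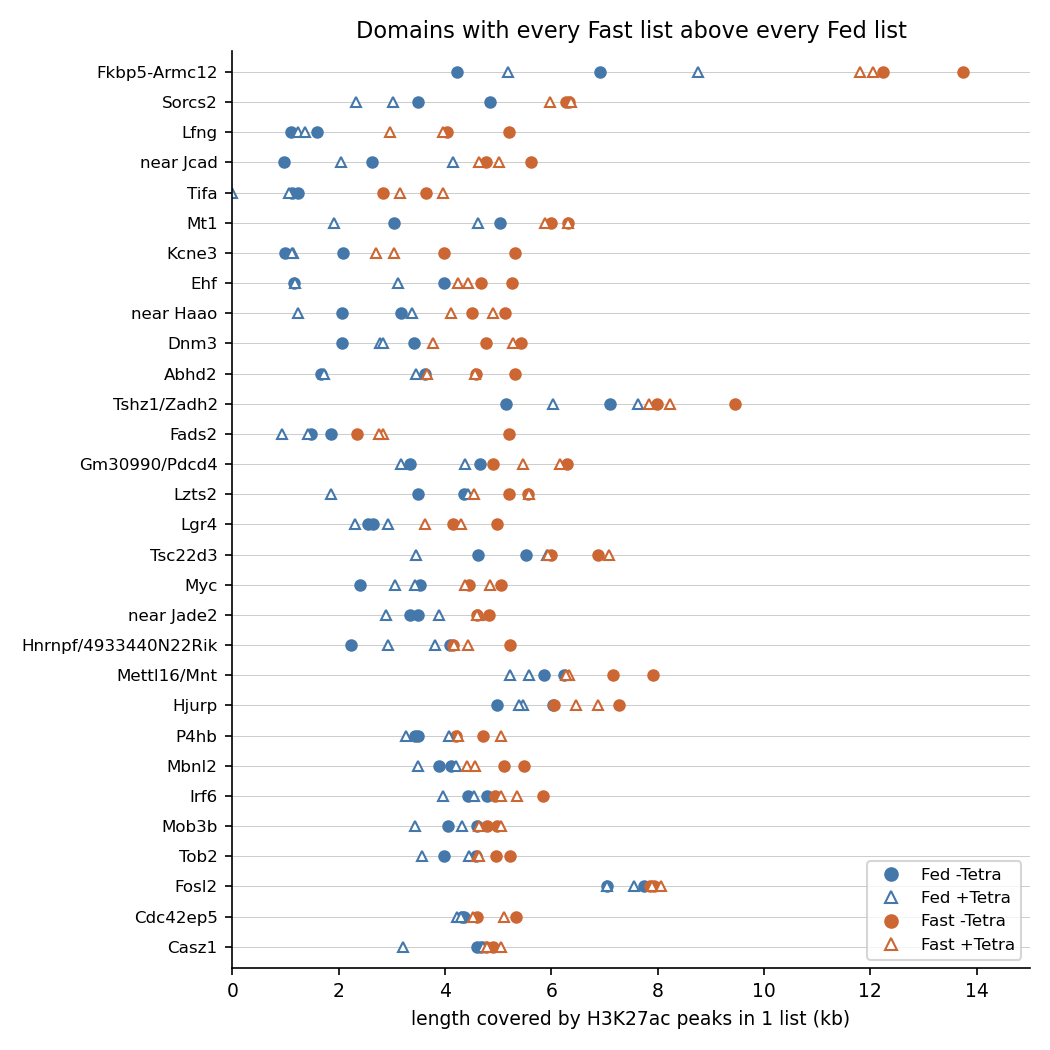
Length covered by H3K27ac peaks (kb) in each of the 8 lists for the 30 domains where every Fast list is above every Fed list, ordered by the difference of means. Blue is Fed, orange is Fast, filled circles are -Tetra and open triangles +Tetra. The gap between groups is widest at the Fkbp5 to Armc12 domain and 0.58 to 0.60 kb in means at Fosl2, Cdc42ep5 and Casz1.

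The choice of peaks, lists and scale mattered for the 30. For left-out lists and score choices the share over all merged regions was not counted. Those counts are not results about domains as a class. The number was 47, 79 and 81 without Fed -Tetra list 2, Fed +Tetra list 2 and Fast +Tetra list 1, when fewer lists had to be apart. The reverse, 0 with all lists, was 17 without Fast -Tetra list 2 and 11 without Fed +Tetra list 1, beside 31 domains with Fast above Fed in each case. It was 3 with an equal number of peaks per list. With the upper 0.5 of each list by the authors' score 40 domains met the same rule, of which 20 were among the 30, and with an equal number of peaks per list, taken by score, 33 did, of which 22 were shared. Under both and with all peaks 19 met it, among them the domain between Fkbp5 and Armc12. Those at Sorcs2, Lfng, Mt1, Ehf, Myc, Lgr4 and Tsc22d3 were also among the 19, but not that at Tifa. Per total peak length of the list, 11 domains (1.09%) had every Fast list above every Fed list, against 1.02% of all merged regions and 2.46% of mid-width regions, and 10 of these were among the 30: Tifa, Lfng, Kcne3, Fads2, those near Jcad, Armc12 and Haao, Sorcs2, Abhd2 and Lgr4. On that scale the Fkbp5 to Armc12 domain was 1.68-fold and the Lfng domain 2.46-fold higher in Fast. The reverse, every Fed list above every Fast list, held in 59 domains (5.85%) on that scale, against 4.27% of mid-width regions and 1.38% of all merged regions. The part of the width rule in these 59 was not counted. Among the 59 was the apolipoprotein domain, which covered 409, 380, 241, 287, 494, 387, 276 and 377 bp per Mb of peaks in the 8 lists, a log2 ratio of -0.50 of Fast over Fed. Its lowest Fed list, at 380, was only just above its highest Fast list, at 377. This domain also covered less in bp, 15.9 kb on average in Fast against 18.4 kb in Fed, though lists overlapped there. Slc2a2, a glucose transporter (-0.60), and Fos (-0.63) were the other members of the gene lists among the 59.

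H3K9ac, which was not used to choose the domains, covered 36.1% of domain length on average over its 8 lists (26.6 to 50.1%), against 30.9% of mid-width regions and 11.2% of narrower ones. The difference between domains and mid-width regions was 5.20 percentage points (0.71 to 12.6) and was positive in 8 of 8 lists (exact sign-flip permutation p = 0.0078, two-sided, the smallest it can give, adjusted p = 0.0078). Domains of 10 kb or wider were covered by 41.9%. Domains with a gene end inside were covered by 45.5% and those without by 24.6%, a difference of 21.0 points (17.1 to 25.5) in 8 of 8 lists (exact sign-flip permutation p = 0.0078, adjusted p = 0.0078). These tests take the 8 lists as separate, though they came from 4 samples. The p-values would be too small were the lists of a sample technical repeats. H3K27ac itself also covered more of domains than of mid-width regions in each list, such as 63.8% against 53.8% in Fed -Tetra list 1. A gene end lay inside 53.0% of domains and 38.8% of mid-width regions. Per 10 kb, however, domains held 1.09 gene ends and mid-width regions 1.69. The part of gene ends in the H3K9ac difference between these classes was not tested. All 8 H3K9ac lists had a peak in 483 domains (47.9%) against 23.2% of those regions, and only 2 domains had H3K9ac in no list. At Cdx2 and Urad H3K9ac covered 10.34, 15.17, 7.98, 14.21, 13.37, 17.03, 11.2 and 17.98 kb, most of the domain in lists 2. At the apolipoprotein genes it covered 10.1, 14.7, 3.48, 11.9, 13.8, 16.7, 7.27 and 8.36 kb. There the Fast lists averaged 7.74 kb and the Fed lists 13.8 kb, and the highest Fast list was above the lowest Fed list.

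The H3K9ac lists covered 1.86, 3.50, 1.90, 2.45, 2.36, 3.42, 2.22 and 2.47 Mb of the domains. The log2 ratio of Fast over Fed was -0.26 with a pooled SD of 0.40 between lists (exact permutation p = 0.39, adjusted p = 0.86, lower in 3 of 4 pairs), and that of +Tetra over -Tetra was 0.14 (exact permutation p = 0.61, adjusted p = 0.86). Neither exceeded the spread between lists. Total H3K9ac peak length was 16.5, 38.9, 47.3, 27.1, 21.5, 37.7, 47.2 and 30.5 Mb in the 8 lists. The domains took 11.2, 8.99, 4.01, 9.04, 10.97, 9.08, 4.69 and 8.11% of it. Over lists 1 this share was lower in both Fast lists than in both Fed lists, while the log2 ratio of covered length was -0.031. Over lists 2 the shares of Fed and Fast overlapped. The H3K9ac share was not tested, so the direction over lists 1 depended on the scale. With an equal number of peaks per list the log2 ratio of Fast over Fed in covered length was -0.79 (exact permutation p = 0.17). Mean H3K9ac was above in Fast in 289 domains (28.7%), against 43.1% of mid-width regions and 25.2% of all merged regions. Of the 30 domains with higher H3K27ac in every Fast list, 16 (53.3%) had a higher Fast mean of H3K9ac, and in 0 of them did the H3K9ac lists of Fast and Fed stand apart in either direction. Over all 1008 domains every Fast list of H3K9ac was above every Fed list in 4 (0.397%) and the reverse held in 33 (3.27%). These shares were 0.189% and 0.268% over all merged regions, and 0.821% and 1.36% over mid-width regions. H3K9ac at Lfng was near nothing, between 0 and 1.23 kb in Fed and between 0 and 1.20 kb in Fast lists, and at Sorcs2 it was found only in the Fast lists 1, with 1.76 and 1.11 kb.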

How the data were processed

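CUT&Tag peak lists of H3K27ac and H3K9ac in small intestinal crypts were used, 2 lists for each of 8 samples. Per the submitters' processing notes, FastQC, Bowtie and SAMtools were used with mouse build mm10. Peak names in the deposited lists begin with MACS. The MACS version, its cutoff and the use of IgG libraries are not given in the sources used here. The deposited lists give a score per peak with no stated unit, the authors' own value, and it served here to order peaks inside each list and nothing else. Each deposited list carries its own peaks. No list gives read totals, so depth is unknown and no interval based on reads could be set.

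Overlapping H3K27ac peaks (at least 1 bp) of the 8 lists were merged with Python 3.11.15, numpy 2.4.6 and pandas 2.3.3, and figures were drawn with matplotlib 3.10.9. For each list the base pairs covered inside each region were counted. Genes, gene ends, microRNAs and promoters came from RefSeq tables for GRCm38.p6, the assembly behind mm10, and 21887 protein-coding genes were used. Peaks on other sequences were left out.

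Fast against Fed was tested by exact permutation of the labels within each tetracycline state (36 arrangements, smallest two-sided p 0.056), and tetracycline within each feeding state. Benjamini-Hochberg adjustment covered 9 tests. Domains whose groups did not overlap were counted without a test. H3K9ac shares of region classes were compared by exact sign-flip permutation over 8 lists (smallest p 0.0078, adjusted over 2 tests). The members and lists were chosen with earlier results of these data known.

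Genes named were those under the 20 widest domains, list genes under a domain, up to 5 domains per direction whose groups did not overlap, and up to 5 domains with a single wide peak in every list. Alternatives were score filters, equal peak numbers, left-out lists, other widths and merges, domains from the other list number and same-numbered pairs. Leaving out the Sfi1 domain and dividing by the total peak length of a list were alternatives chosen after seeing the data. The 2 lists of a sample shared at most 7 identical peaks. The merging and counting were checked on simulated lists. Some genes of the lists are counted but not reported here by name.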

Additional observations from a re-analysis of the deposited data

Results flagged for a closer look

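Wide H3K27ac peaks were also found outside the chromosomes analysed. Over the 8 lists, 4 peaks of 5000 bp or wider lay on sequences other than chromosomes 1 to 19, X and Y, with widths of 6615, 31527, 5263 and 6313 bp. The widest of these was longer than the domain at Sfi1 (24498 bp). They entered no comparison, and no gene was assigned to them.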

How the results depend on the processing

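The main limits are the unknown depth, 2 lists per group of unknown relation, and tests of feeding and tetracycline that could not pass 0.05. Their p-values therefore do not speak to stability: 0 of these tests under any alternative was under 0.05. The 2 sign-flip tests of H3K9ac between classes of regions could pass 0.05 and were run under no alternative. Of 89 values under alternatives other than left-out lists, 72 kept their direction and their side of 0.05 or, for counts, stayed within 1.5 times. The 72 include the values of same-numbered pairs, where neither direction nor side could change. Sizes moved more: with equal numbers of peaks per list the fasting share was -0.16 points and H3K9ac in Fast over Fed -0.79, and at 3 kb the fasting share was -3.04 points. With equal numbers of peaks per list the share of peak length differed by -0.36 points for +Tetra against -Tetra, and with domains from the other list number the fasting effect differed by 0.038 (log2) between +Tetra and -Tetra; the cause was not tested. Domains with every Fast list above every Fed list numbered 243 at a width of 3 kb (10 the other way), 1 at 10 kb and 63 with gaps up to 500 bp merged. At these widths and merges, and under score choices, the share over all merged regions was not counted. Domains with every -Tetra list above every +Tetra list numbered 8 in the upper 0.5 by score, 6 with equal numbers of peaks, 28 at 3 kb, 0 at 10 kb and 17 with gaps merged. The number of domains was 4390, 92 and 2104 under the last 3 settings, and 107 and 19 of the 225 list genes were under a domain at 3 and 10 kb, against 67. Divided by total peak length, 11 domains had Fast above Fed and 59 the reverse, and 1 domain had -Tetra above +Tetra and 10 the reverse.

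Leaving out lists turned several directions. The log2 ratio of covered length, Fast over Fed, ranged from -0.054 (without Fed +Tetra list 1) to 0.25, that of +Tetra over -Tetra from -0.23 to 0.072, and the difference of the fasting effects from -0.35 to 0.26. The share of peak length ranged from -2.80 to 0.053 points for fasting and from -0.19 to 1.17 for tetracycline. The ratio of single wide peaks ranged from -0.21 (without Fed +Tetra list 1) to 1.62 for fasting and from -1.30 to 0.52 for tetracycline. H3K9ac in domains ranged from -0.49 to -0.031 for fasting and from -0.092 to 0.37 for tetracycline. Directions turned without single lists as follows: covered length and single peaks by tetracycline without Fed -Tetra list 2, Fast -Tetra list 2 or Fed +Tetra list 1, single peaks also without Fast +Tetra list 1. The difference of fasting effects turned without Fed -Tetra list 1, Fast -Tetra list 2, Fed +Tetra list 2 or Fast +Tetra list 1. The share by tetracycline turned without Fast +Tetra list 2, and H3K9ac by tetracycline without Fed -Tetra list 1. The share over all merged regions was not counted for left-out lists. Where fewer lists have to be apart, counts of domains apart ranged from 31 to 371 for fasting and from 3 to 253 for tetracycline. The counts of 371 and 253, without lists 2, had 88 and 70 the other way. For fasting they were 47, 79 and 81 without Fed -Tetra list 2, Fed +Tetra list 2 and Fast +Tetra list 1, with 0 the other way. They were 31 with 17 the other way without Fast -Tetra list 2, and 31 with 11 the other way without Fed +Tetra list 1. For tetracycline they were 41, 16, 6, 37 and 15 without Fed -Tetra list 1, Fast -Tetra list 1, Fast -Tetra list 2, Fed +Tetra list 2 and Fast +Tetra list 2, and 3 without Fed +Tetra list 1. In the cases of 6 and 3 domains the other direction held in 6. Without the Sfi1 domain, chosen after the data were seen, the ratios were 0.098 and -0.080.

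Lists of the same number were also taken as pairs (a replicate block by exact sign-flip permutation). The block leaves every effect as it was, 0.099 for covered length in Fast over Fed (permutation p = 0.25), and changed no call. The difference of list 2 minus list 1 correlated over the domains between groups by 0.081 to 0.32, above 0.1 in 4 of 6 pairs of groups, and the labels do not say what a number shares.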
